A study of Canis lupus familiaris with 186 samples.

Results

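The chemokines and chemokine receptors of the DOG2 dataset were the 51 genes, of 37952 in the table, whose symbols begin with CCL, CXCL, CX3CL or XCL (ligands), CCR, CXCR, CX3CR or XCR (receptors) or ACKR (atypical receptors) and end in a number. They comprised 30 ligands, 17 receptors and 4 atypical receptors, and no measured value was used to choose them. Chemokines are small secreted proteins, of which CX3CL1 and CXCL16 are also made as membrane-anchored forms, and they direct the movement of leukocytes along concentration gradients. The conventional receptors signal through inhibitory G proteins to phosphoinositide 3-kinase, Rac and the actin cytoskeleton, and are then silenced by G protein-coupled receptor kinases and arrestins. Atypical receptors bind the same ligands without coupling to G proteins, and remove or transport them. In bone, chemokines and their receptors are known for recruiting lymphocytes, monocytes and the precursors of osteoclasts, the cells that resorb bone.

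The dataset holds mRNA sequencing of primary appendicular osteosarcomas from 186 pet dogs of varying age, breed and sex, without macroscopic metastasis at diagnosis. Of these dogs, 93 were enrolled in the trial COTC021 and 93 in COTC022, with 1 library per dog from tumor tissue taken before treatment. All dogs were then to receive amputation and carboplatin, with or without rapamycin, and the labels do not say which dog received rapamycin. The values are expected counts, in which a read that maps to several genes is divided between them, and levels below are counts scaled to the library total (CPM). The total per library ranged from 6587634 to 27420867 counts, with a median of 10797171. The deposited column names of 50 libraries contain the mark __ (18 from COTC021 and 32 from COTC022), and they were sequenced to a median depth of 19440456 counts, while the 136 without the mark had 9851682. Since the tissue was sequenced in bulk, a lower level cannot be resolved into fewer cells of a type or less RNA per cell.

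The defining markers of bone-forming cells were checked first. COL1A1, the main collagen of bone, was found in every library, at no less than 328 CPM and with a median of 20451 CPM. SP7, the osteoblast transcription factor, was under 1 CPM in 10 dogs, and IBSP, the bone sialoprotein, in 5. Thus a small number of libraries lacked late osteoblast markers.

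A pair of libraries stood apart in the chemokine genes, both from COTC022. The first, with the mark __ in its column name, had the highest CCL5 of all dogs, 3189.9 CPM against at most 967 CPM in the others, and the highest GS-1 score, which is explained below. All 10 of the 10 T cell markers and 10 of the 12 cytotoxic and NK markers in the table were at their highest in this dog. Its summed T cell markers came to 3688 CPM, with a range of 4.20 to 888 CPM in the others. Its osteoblast markers and its cartilage markers both had the lowest sums of the 186 dogs, with the osteoblast sum at 940.0 CPM against 2511 CPM or more in the others. It held 328 CPM of COL1A1, 1 count of SP7 and 4 counts of IBSP. In this library 10 of the 51 chemokine genes were higher than in any other dog, among them CCR2, CCR7, CXCR3, CXCR6 and XCR1. The second library had the highest CXCL8, 6951 CPM against at most 2400 CPM in the others, and the highest sum of neutrophil markers, 1356 CPM against 3.29 to 598 CPM. CXCR1 and CXCR2, the receptors of CXCL8, were also at their highest there, at 46.6 and 18.3 CPM, and no count of SP7 was found. Values without these libraries are given beside the results that they move most.

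At a minimum of 10 counts, 3 of the 51 genes were detected in every dog, ACKR3, CCL23 and CXCL16, and 7 in no dog. The 7 were CCL1, CCL26, CCL28, CXCL11, CXCL17, CCR9 and CCR10, and CCL26 had no count in any library. A count of 0 allows up to 3 counts, which correspond to 0.455 CPM in the smallest library and 0.109 CPM in the largest, for counting error alone. Reads were counted without molecular identifiers, so counts are not independent molecules. The low-count filter kept 13422 genes and 19 of the 51: 10 ligands, 7 receptors and 2 atypical receptors. Of the 32 genes that did not pass, 11 had at least 10 counts in more than 30 dogs, so genes outside the tests below were not absent from the tumors. The levels of genes are not ranked against each other here, since the counts are not per length.

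Among the ligands that passed, the CC family includes attractants of monocytes and T cells. CCL5, a ligand of CCR1 that T cells and NK cells secrete, had a lowest level of 0.177 CPM, a median of 9.44 and a highest of 3189.9. CCL2, the main ligand of CCR2 and an attractant of monocytes, had 0.487, 12.4 and 289 CPM. The 5 dogs with the highest CCL5 held 53.7% of its CPM summed over all dogs, or 40.8% without the dog of highest CCL5, and for CCL2 this share was 20.3%, so that CCL5 was more concentrated in a few dogs. CCL23, which binds CCR1, had 2.504, 38.2 and 457 CPM, and CCL14, which binds CCR1 after cleavage, 0.0822, 8.82 and 85.8 CPM. CCL21, the ligand of CCR7 that guides dendritic cells and naive T cells into lymphatics and lymph nodes, had no count in 14 dogs, a median of 3.28 CPM and a highest level of 371 CPM.

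The ligands of the CXC and CX3C families also differed in how evenly they were spread. CXCL8, the neutrophil attractant, ran from 0.309 CPM through a median of 7.03 to 6951 CPM, and the 5 highest dogs held 71.9% of its summed CPM, or 53.3% without the dog of highest CXCL8. CXCL12, a product of stromal and bone marrow cells that ACKR3 also binds, had 0.107, 8.54 and 128 CPM. CXCL14, whose receptor is debated, had 1.18, 98.4 and 1087 CPM. CXCL12 and CXCL14 were less concentrated in a few dogs than CXCL8, as the 5 highest held 15.3% and 14.9%. CXCL16, the ligand of CXCR6, was present in every dog at 5.83 to 185 CPM with a median of 26.6. CX3CL1, the ligand of CX3CR1, had 0.164, 6.64 and 38.5 CPM. CXCL16 had the smallest SD of the 19 genes on the log2 CPM scale, 0.94, and CCL21 and CXCL8 the largest, 2.38 and 2.37, compared with a median SD of 0.62 over the 13422 genes. All 19 lay above that median.

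Among the receptors, CCR1 and CCR2 are carried by monocytes and their descendants. CCR1 (chromosome 20, 42827348 to 42831924) had 0.711 CPM in the lowest dog, 66.4 in the median and 343 in the highest. CCR2 (chromosome 20, 42710738 to 42719282) had 0.0812, 4.00 and 116 CPM. CCR1 was the receptor with the most even spread, its 5 highest dogs holding 8.76% of the summed CPM. CCR7, the homing receptor of naive T cells and mature dendritic cells, had 0.102, 2.25 and 63.2 CPM. XCR1, the receptor of cross-presenting dendritic cells, had 0, 1.15 and 45.7 CPM, with no count in 6 dogs. CX3CR1, a receptor of monocytes and tissue macrophages, had 0, 1.57 and 57.2 CPM. CXCR6, carried by activated and tissue-resident T cells, had 0, 1.29 and 671 CPM, and 63.9% of its summed CPM lay in 5 dogs. Its highest level came from the dog of highest CCL5, without which the next was 124 CPM and the share of 5 dogs 35.8%. Of the atypical receptors, ACKR3, which binds CXCL12, had 5.00, 22.6 and 301 CPM, and ACKR2, a scavenger of inflammatory CC ligands, had 0, 3.71 and 269 CPM.

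**Figure D1:**
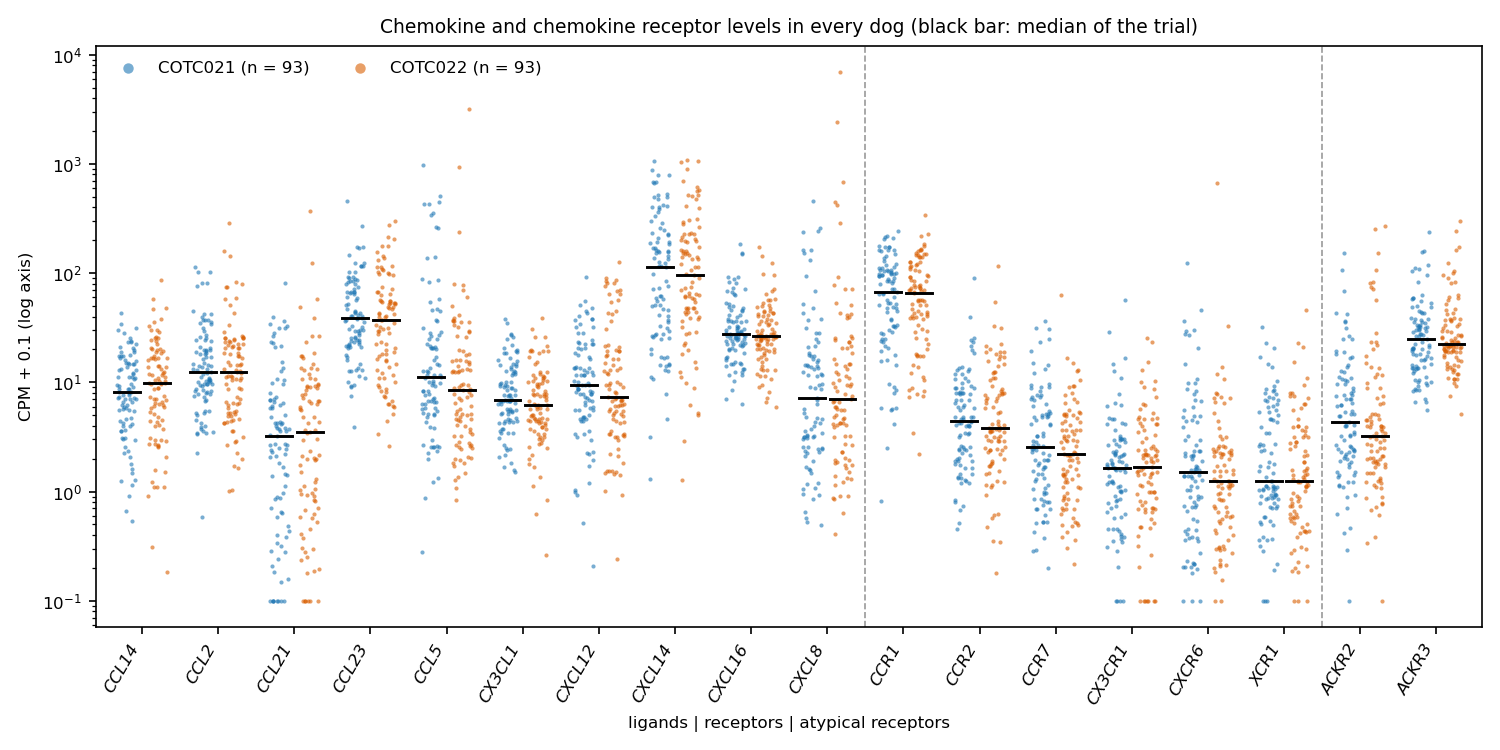
Level of 18 of the 19 genes that passed the filter in each of the 186 dogs, as CPM + 0.1 on a log axis, with COTC021 in blue, COTC022 in orange, and black bars at the median of each trial. The medians of the trials lay close together for every gene shown, for example 67.6 and 65.2 CPM for CCR1, while single dogs reached 3189.9 CPM of CCL5 and 6951 CPM of CXCL8.

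Of the genes that did not pass the filter, CXCR1, CCL22, ACKR1, CXCL13 and CXCL10 had 10 or more counts in 84, 62, 73, 58 and 57 dogs. CXCL10, an interferon-induced ligand of CXCR3, had a median of 0.257 CPM and a highest level of 65.9. CXCL13, the ligand of CXCR5 that draws B cells into follicles, had a median of 0.217 CPM and a highest level of 148, and 59.5% of its summed CPM lay in 5 dogs. Both were therefore near the detection limit in most dogs and well above it in a few. CXCR1 and CXCR2 are neighbours on chromosome 37 (24737272 to 24741318 and 24714358 to 24719785), and 42.5% of the values of each were not whole numbers, compared with 0% for the other members named here. The counting therefore split reads between this pair, and their separate levels are uncertain.

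The trial was the only grouping of dogs given by the labels, and was compared first. None of the 19 genes differed between COTC022 and COTC021 by limma-voom with Benjamini-Hochberg adjustment over all genes, with 0.0149% of the 13422 genes called in either direction. At an unadjusted p under 0.05, 0 of the 19 passed as well, and without the low-count filter 0 of 50 were called, with 0.00666% of all genes. The fitted log2 differences, COTC022 minus COTC021, ranged from -0.54 for CCL5 (standard error 0.31) to 0.33 for CCL21 (standard error 0.41). The sign depended on the method for several genes, as 8 of 18 had the opposite sign in edgeR, CCL5 among them at 0.094. CCR1 averaged 78.0 ± 59.0 CPM (SD, n = 93) in COTC021 and 75.9 ± 60.6 CPM (SD, n = 93) in COTC022. CCL2 averaged 20.1 ± 22.2 CPM and 22.8 ± 38.3 CPM (SD, n = 93 each). DESeq2 called 0 of the 19, with 0.545% of the 13023 genes that it gave an adjusted p, and it gave none for 6 of the 19, CCL5, CXCL8 and CXCR6 among them. The quasi-likelihood test of edgeR called 1 of the 19, with 0.961% of all genes called. This was CXCL8, at a log2 difference of 2.21 (adjusted p = 0.00202), and without the library of highest CXCL8 it was 1.05 (adjusted p = 0.178). The median CXCL8 was 7.09 CPM in COTC021 and 6.98 CPM in COTC022.

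Levels were next compared with the immune gradient on which the study clustered the dogs. GS-1 is a gene signature from an earlier canine study that is rich in leukocyte genes, and CCR1 and CCR2 belong to it. Here a GS-1 score was made for each dog from the mean z-score of the 24 other signature genes, none of which is a chemokine gene, with an SD of 1 over the dogs. Of the 19 genes, 18 rose with the score and none fell, and the exception was ACKR3. Over all 13422 genes, 22.4% rose and 26.1% fell, or 48.5% in either direction. The median slope of the 19 was 0.73 on the log2 scale per SD of the score, compared with -0.02 over all genes. It was 0.69 for the 10 ligands and 1.24 for the 9 receptors, the atypical ones included.

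The steepest slopes belonged to receptors of lymphocytes and dendritic cells and to CCL5. CXCR6 rose by 1.95 per SD (standard error 0.08, adjusted p = 9.77e-57, limma-voom), CCL5 by 1.69 (0.12, adjusted p = 4.71e-28) and XCR1 by 1.42 (0.07, adjusted p = 5.92e-46). CCR2 rose by 1.32 (0.05, adjusted p = 3.91e-57). It belongs to GS-1, so that its rise with the remaining signature genes is not independent of how the signature was chosen. CCR1, also a signature gene, rose by 0.47 (0.10, adjusted p = 5.97e-05). Between these extremes stood CCR7 at 1.24, CCL23 at 1.09, CXCL8 at 0.89, CCL2 at 0.79, CXCL16 at 0.73, CX3CR1 at 0.68, CCL21 at 0.66, CXCL14 at 0.61 and CCL14 at 0.52. Among the shallowest, CXCL12 rose by 0.49 (standard error 0.11, adjusted p = 0.000138), ACKR2 by 0.44 (0.14, adjusted p = 0.00465) and CX3CL1 by 0.19 (0.08, adjusted p = 0.0414). ACKR3 had a slope of -0.01 (0.08, adjusted p = 0.929).

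CX3CL1 lost its call without the dog of highest CCL5, with a slope of 0.17 (adjusted p = 0.102), and the other 17 kept theirs. In that fit 24.1% of all genes rose. When subsets were fitted alone, 14 of the 19 genes rose in COTC021, where 14.2% of all genes rose, and 16 in COTC022, where 17.3% did. In the 50 libraries with the mark __ 12 of the 19 rose, with 13.9% of all genes, and in the 136 without it 17, with 17.4%. No slope differed between the trials by the interaction of trial and score, with 0% of all genes called, and at an unadjusted p under 0.05 0 of the 19 passed. The edgeR test also called 0 of the 19, with 0.0149% of all genes called, and no slope differed by the mark __, with 0.0298%. The differences in slope, COTC022 minus COTC021, lay between -0.43 for ACKR2 (standard error 0.27) and 0.36 for CCL14 (standard error 0.19).

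**Figure D2:**
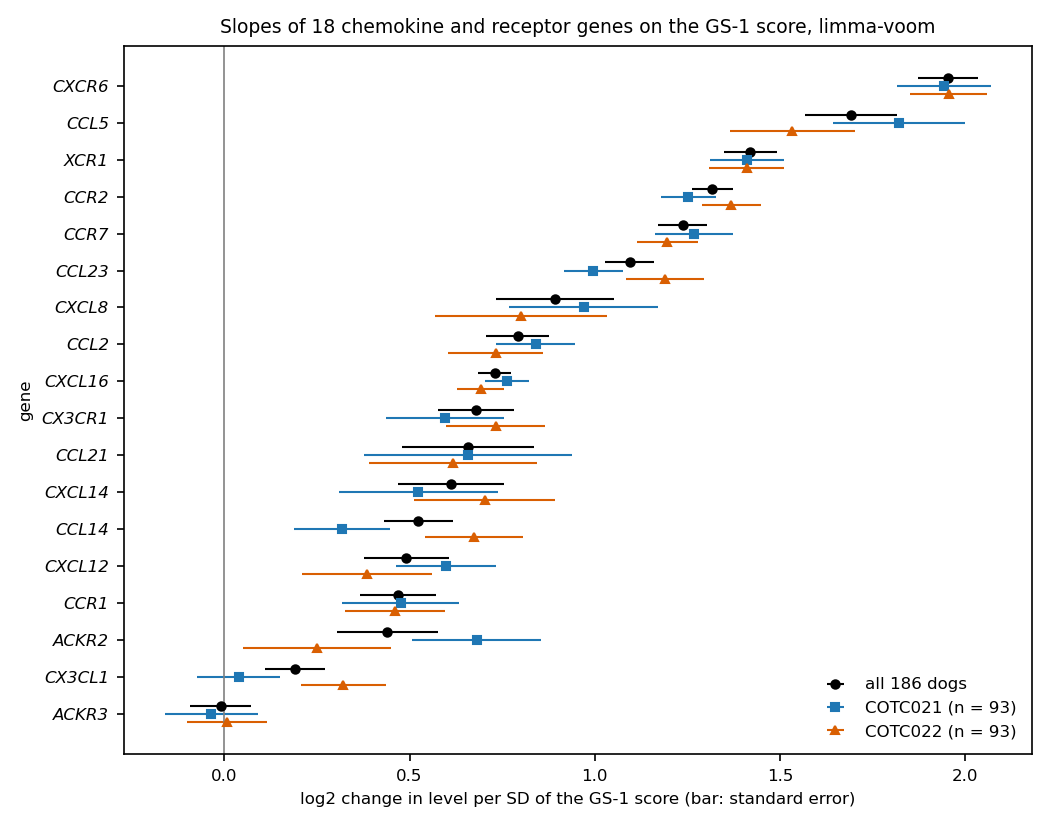
Slope of 18 of the 19 genes on the GS-1 score, as the log2 change per SD of the score with its standard error, in all 186 dogs (black circles), COTC021 (blue squares) and COTC022 (orange triangles). Slopes fell from 1.95 for CXCR6 to -0.01 for ACKR3, and the order was much the same in either trial, with the widest gaps for ACKR2 and CCL14.

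Genes under the filter could be fitted only without it, where 40 of 50 rose, none fell, and 14.4% of 30014 genes rose, with 28.1% called in either direction. CXCL13 rose by 1.55 per SD of the score (standard error 0.11, adjusted p = 2.01e-31, limma-voom) and CXCL10 by 1.41 (0.12, adjusted p = 8.77e-24). The T cell ligand CCL4 rose by 1.36 (0.09), ACKR1, which carries chemokines across venules, by 1.34 (0.18), and CXCR3, the receptor of CXCL10 on activated T cells, by 1.33 (0.08). CXCL11 and CCR9 also passed, at 0.11 (0.04) and 0.25 (0.06), but had no more than 2 and 4 counts in any dog, so that these slopes rest on values at the detection limit. Other near-empty genes passed as well, for example CCL16 (0.33), CCL20 (0.31) and CCL7 (0.27), without a count in 155, 155 and 151 dogs. Of the 128 counts of CCL16, 62 came from the dog of highest CCL5. The 10 genes that did not pass included CX3CL1, at 0.18 (adjusted p = 0.0965).

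Several marker lists moved with the same score. Of the markers tested, 10 of 10 macrophage, 6 of 6 T cell and 3 of 3 cytotoxic and NK genes rose. So did 7 of 10 endothelial, 4 of 5 neutrophil, 2 of 7 osteoclast and 2 of 7 skeletal muscle genes, with none falling. The B and plasma cell list had 1 of 1 rising and the fat list 1 of 2. Of 10 osteoblast genes 1 rose and 6 fell, and of 6 dendritic cell genes 4 rose and 1 fell. Of 7 cartilage genes 3 fell and none rose. Over all genes, 22.4% rose and 26.1% fell. The macrophage score had a correlation of 0.92 with the GS-1 score over the 186 dogs, the T cell score 0.79, the osteoclast score 0.0777 and the osteoblast score -0.345. The part of cell composition in the slopes was not tested. To describe with which cells each gene moved, slopes were fitted on 12 marker scores in turn, and 145 of the 228 slopes passed the threshold. The B and plasma cell score rested on 1 gene, the fat score on 2 and the cytotoxic and NK score on 3, so these are the least secure. For each gene, those most like it are also named below, and markers were not left out. CD3E, LCK, GZMK, CTSK, DCSTAMP, CSF3R, AIF1, IRF8, LAMP3 and TEK are themselves genes of these scores. CD53, C3AR1 and DLA-DQA1, also named below, are genes of the GS-1 score. Correlations with any of these genes are therefore not separate from the slopes on the score that holds it.

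CCL5 and CXCR6 moved with the lymphocyte scores, and without a covariate also with the macrophage and dendritic cell scores. With the T cell score 14 of the 19 genes rose and none fell, with 16.1% of all genes called higher and 13.8% lower. CCL5 rose by 1.92 per SD of the T cell score (standard error 0.07, adjusted p = 6.34e-61, limma-voom) and CXCR6 by 1.85 (0.05, adjusted p = 7.92e-89). With the GS-1 score as a covariate, CCL5 still rose by 1.98 and CXCR6 by 1.48, and CX3CR1 fell by 1.24. Both genes were most like CD3E, a chain of the T cell receptor complex, with r of 0.86 for CCL5 and 0.92 for CXCR6 over 186 dogs. The next were IL2RB and LCK for CCL5 and GIMAP7 and GZMK for CXCR6, all of them lymphocyte genes. Without the dog of highest CCL5 the correlations with CD3E were 0.84 and 0.91.

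Of the receptors, CCR1 had the steepest slope on the osteoclast score, and no other passed the threshold without a covariate. It rose by 1.38 per SD (standard error 0.05, adjusted p = 3.04e-60, limma-voom), and by 1.34 (adjusted p = 1.99e-68) with the GS-1 score as a covariate. With the osteoclast score 2 of the 19 genes rose and none fell, with 15.2% of all genes called higher and 17% lower. CCL14, a ligand of CCR1, was the other, at 0.34 (0.12, adjusted p = 0.0175). Given the GS-1 score as a covariate, CX3CR1 also rose, by 0.38 (adjusted p = 0.0128, limma-voom), and CXCR6 fell by 0.33 (adjusted p = 0.00622). The genes most like CCR1 were CTSK, the collagen-degrading protease of osteoclasts, with r = 0.93, CD84 with 0.93 and DCSTAMP, which osteoclast precursors need for fusion, with 0.93. The correlation with CTSK was 0.92 in COTC021 and 0.95 in COTC022. With the GS-1 score as a covariate, CCR1 rose about as steeply on the macrophage score, by 1.37 (0.24, adjusted p = 7.49e-06, limma-voom). Without the covariate, the slope of CCR1 was 0.64 on the macrophage score (0.10, adjusted p = 1.26e-08), 0.34 on the osteoblast score (0.11, adjusted p = 0.01) and -0.53 on the cartilage score. It was the 1 gene to rise with the osteoblast score, with which 12 of the 19 fell, and 16.4% of all genes were called higher and 18.2% lower.

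CXCL8 moved with the neutrophil score, by 1.55 per SD (standard error 0.14, adjusted p = 2.08e-18, limma-voom), and by 1.46 with the GS-1 score as a covariate. With that score 10 of the 19 genes rose and none fell, with 9.32% of all genes called higher and 7.13% lower. The genes most like CXCL8 were the cytokine OSM (r = 0.87), the granulocyte colony-stimulating factor receptor CSF3R (0.79) and AQP9 (0.75). Without the dog of highest CXCL8 these were 0.86, 0.77 and 0.74. CXCL8 also rose by 1.01 with the macrophage and by 0.83 with the cytotoxic and NK score, and fell by 0.73 with the osteoblast score. CCL2 had the next steepest slope among the ligands on the neutrophil score, 0.58, but was not particular to it. Its slope was 0.78 on the macrophage, 0.63 on the dendritic cell and -0.66 on the osteoblast score. With the GS-1 score as a covariate, CCL2 had 0.32 on the neutrophil score (adjusted p = 0.0143, limma-voom) and 0.18 on the macrophage score (adjusted p = 0.404). CCL2 was most like FCGR1A, TREM1 and BCL2A1, with r of 0.74, 0.72 and 0.72.

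The macrophage and dendritic cell scores took in most receptors. With the macrophage score 17 of the 19 genes rose and none fell, with 20.7% of all genes called higher and 25% lower, and with the dendritic cell score 18 rose and none fell, with 19% and 18.8%. CCL23 rose by 1.17 per SD of the macrophage score (standard error 0.06, adjusted p = 1.4e-41, limma-voom), and by 0.88 with the GS-1 score as a covariate. It was most like CTSS, AIF1 and CD53, with r of 0.84, 0.83 and 0.82. CXCR6 and CCL5 also rose with the macrophage score, by 1.68 and 1.46 without the covariate. The steepest slope on the dendritic cell score was that of CXCR6, 1.87, or 0.55 with the covariate. XCR1 rose by 1.49 with the dendritic cell score and by 0.69 with the covariate, CCR7 by 1.27 and 0.61, and CCR2 by 1.27 and 0.41. CCL5 rose by 1.45, and had a slope of 0.18 with the covariate (adjusted p = 0.736, limma-voom). XCR1 was most like IRF8, a factor for dendritic cell development (r = 0.83), and CCR2 like the class II genes DLA-DQA1 and DLA-DRA (0.86 and 0.85), which present antigen. CCR7 was most like IL2RG (0.80) and LAMP3 (0.79), a marker of mature dendritic cells, and CX3CR1 like GPR34 (0.73) and C3AR1 (0.72). CXCL16 was most like DLA-DRA (0.78), DLA-DMB (0.78) and CD74 (0.77), genes of class II presentation.

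CCL21, CXCL14, CXCL12, CCL14 and ACKR2 rose with the endothelial score, and CXCL12 and CCL14 more steeply with the fat score. CCL21 rose by 1.72 per SD of the endothelial score (standard error 0.15, adjusted p = 1.61e-20, limma-voom), and by 1.69 with the GS-1 score as a covariate. With that score 15 of the 19 genes rose and none fell, with 19.5% of all genes called higher and 19.7% lower. CCL21 was most like TEK, the angiopoietin receptor of endothelium, with r = 0.74. CXCL14 rose by 0.91 and ACKR2 by 0.77 with the endothelial score, while CXCL12 rose by 0.83 and CCL14 by 0.70 with the fat score. CCL14 was not particular to these scores, with 0.66 on the endothelial, 0.64 on the macrophage and 0.56 on the dendritic cell score. With the GS-1 score as a covariate, its slope was 0.53 on the endothelial and 0.71 on the macrophage score. ACKR2 was most like PI16 (0.71), a marker of adventitial fibroblasts, CXCL14 like ITGBL1 (0.67), CXCL12 like KSR1 (0.62) and CCL14 like STAB1 (0.57). The weakest resemblances were those of ACKR3, most like TPPP3 (0.52), and CX3CL1, most like KIAA1755 (0.40). ACKR3 rose by 0.28 with the endothelial score and by 0.27 with the cartilage score, with 13.8% of all genes called higher on the latter, and was the only 1 of the 19 to do so. With the fat score 12 of the 19 rose and none fell, with 12.8% of all genes called higher and 7.99% lower. With the skeletal muscle score 5 rose and none fell (7.57% and 3.97% of all genes), with the B and plasma cell score 14 and none (14.6% and 11%), and with the cytotoxic and NK score 15 and none (18.4% and 19.1%). With the cartilage score 9 fell, with 14.4% of all genes called lower.

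With the GS-1 score as a covariate, 67 of the 228 slopes passed. On the T cell score 4 of the 19 genes rose and 4 fell, with 9.3% of all genes called higher and 8.84% lower, and on the cytotoxic and NK score 3 rose and 4 fell (3.08% and 3.55%). The rises were those of CCL5, CXCR6 and CCR7 on both scores and of CX3CL1 on the first, and CCL23 and CX3CR1 fell on both. On the macrophage score 3 rose and 3 fell (6.17% and 5.53%). CCR1 rose by 1.37, CCL23 by 0.88 and CCL14 by 0.71, whereas CXCR6 fell by 1.33, CCL5 by 0.996 and XCR1 by 0.66. On the endothelial score 9 rose and 1 fell (12.9% and 11.6%), the fall being that of CCL5, and on the fat score 4 rose and 2 fell (2.91% and 1.22%). On the dendritic cell score 5 rose and 0 fell (1.49% and 0.581%), on the neutrophil score 2 and 0 (4.05% and 2.88%) and on the skeletal muscle score 3 and 0 (4.28% and 1.23%). On the osteoblast score 3 rose and 5 fell (14.1% and 13.5%), and on the osteoclast score 3 and 2 (15.4% and 17.5%). On the cartilage score 3 rose and 2 fell (11.9% and 10.7%), and on the B and plasma cell score 1 and 1 (1.08% and 1.04%).

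**Figure D3:**
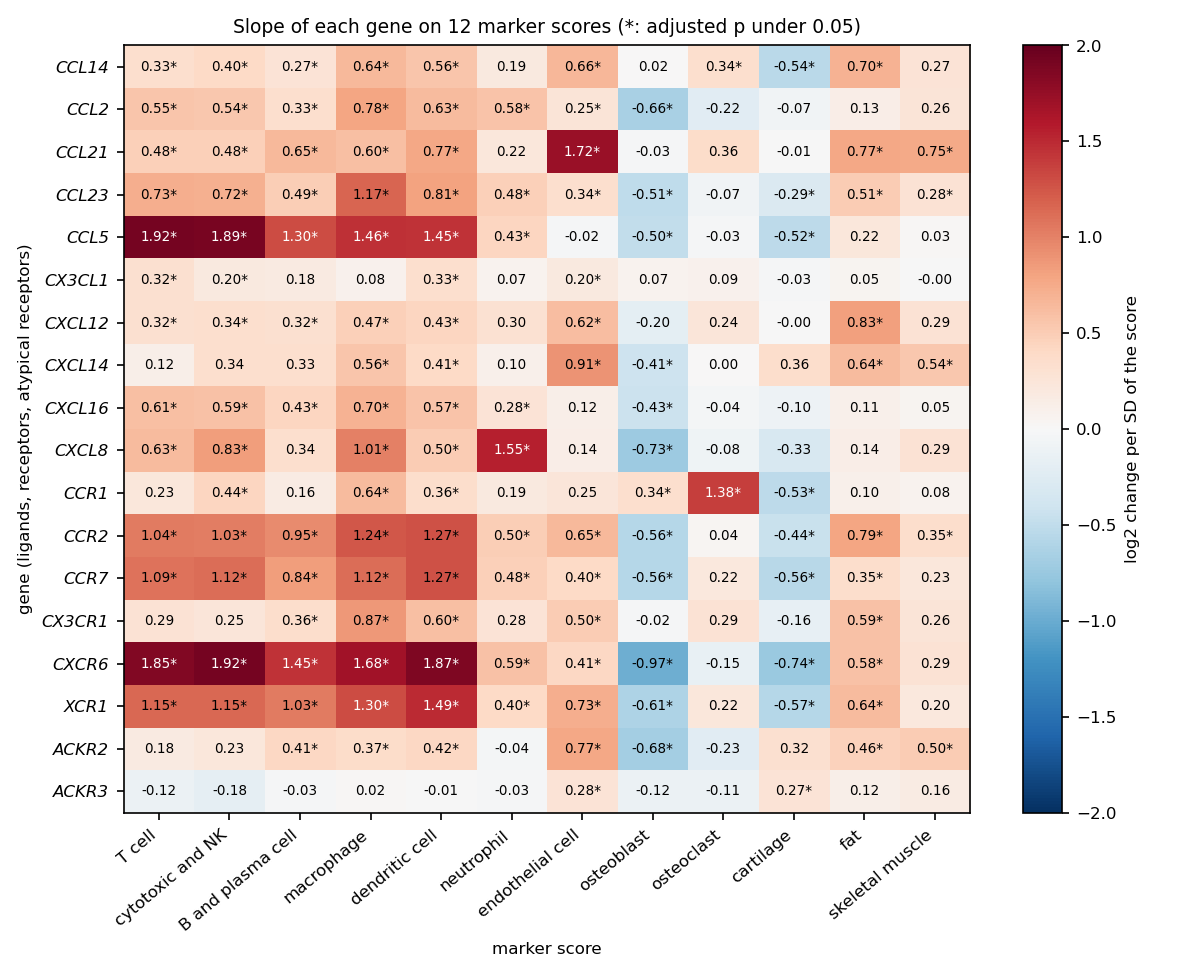
Slope of 18 of the 19 genes (ligands, then receptors, then atypical receptors) on 12 marker scores, as the log2 change per SD of the score, with red for a rise, blue for a fall and an asterisk for an adjusted p under 0.05. CCR1 stands out in the osteoclast column at 1.38, CCL21 in the endothelial column at 1.72, and CXCL8 in the neutrophil column at 1.55. CCL5 and CXCR6 reach 1.92 and 1.85 in the T cell column. CXCR6 is also at 1.92 in the cytotoxic and NK, 1.87 in the dendritic cell and 1.68 in the macrophage column.

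Ligands were then compared with their receptors, for 10 of 44 known pairs in which both genes passed the filter. In the fit on the level of the receptor, the ligand rose in 6 of the 10 pairs, CCL2 with both CCR2 and ACKR2, and fell in none. The share of all genes that rose with each of the 7 receptors of these pairs lay between 8.64% for ACKR3 and 23.9% for CCR2, the others being 18.7% for CCR1, 17.5% for CCR7, 16.6% for CXCR6, 20.9% for CX3CR1 and 21.5% for ACKR2. With the GS-1 score as a covariate the ligand passed in 4 pairs, CXCL12 on ACKR3 and CCL2 on ACKR2 as rises, with 9.83% and 17.5% of all genes called higher, and CCL23 on CCR1 and CCL5 on ACKR2 as falls, with 17.7% and 15.6% called lower. Of all genes, 15% rose with CCR1, 7.35% with CCR2, 1.93% with CCR7, 1.82% with CXCR6 and 14.5% with CX3CR1 in that fit, and for the same receptors 17.7%, 6.16%, 1.62%, 2.74% and 14.1% fell, with 5.36% for ACKR3. All permutation tests below are two-sided with 100000 resamples, whose smallest possible p is 1e-05, and r is over 186 dogs.

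CXCL16 and CXCR6 had the highest r of the 10 pairs, 0.66 (permutation p = 1e-05) and rho = 0.59 (permutation p = 1e-05). The r was 0.62 without the 2 dogs farthest from the median CXCR6, 0.67 for COTC021 and 0.65 for COTC022, and 0.70 with the mark __ and 0.65 without it. CCL2 and CCR2 had r = 0.49 and rho = 0.48 (permutation p = 1e-05 for both), with 0.49 without the 2 farthest dogs, 0.58 and 0.42 in the trials and 0.45 and 0.52 with and without the mark. Hence r was at 0.42 or higher in each of these subsets for both pairs, which guide T cells and monocytes.

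Both pairs were tied to the GS-1 score. CCR2 is itself a signature gene, so its partial correlation is not independent of how the signature was chosen. Given that score, the partial correlation was 0.10 for CXCL16 and CXCR6 and 0.0043 for CCL2 and CCR2. In the fit with the score as a covariate, the slopes of the ligands were 0.09 (adjusted p = 0.563, limma-voom) and 0.0071 (adjusted p = 0.985), compared with 0.63 (adjusted p = 3.52e-24) and 0.72 (adjusted p = 5.08e-12) without it. Among all genes, CXCL16 ranked 161st in its correlation with CXCR6 and CCL2 582nd with CCR2, of 13421.

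The pairs of the atypical receptors differed from each other. ACKR3 had a slope of -0.01 on the GS-1 score, so that taking the score into account could change its correlation with CXCL12 only a little. CXCL12 and ACKR3 had r = 0.34 (permutation p = 1e-05) and rho = 0.30 (permutation p = 3e-05), and the partial correlation given the GS-1 score was 0.37. The r was 0.33 without the 2 farthest dogs, 0.29 and 0.39 in the trials, and 0.18 with the mark __ and 0.39 without it. CXCL12 ranked 152nd of 13421 genes in its correlation with ACKR3, and rose by 0.58 per SD of ACKR3 (standard error 0.11, adjusted p = 7.07e-05, limma-voom), and by 0.61 with the score as a covariate (adjusted p = 2.56e-06). CCL2 and ACKR2 had r = 0.34 (permutation p = 1e-05) and rho = 0.31 (permutation p = 2e-05), with a partial correlation of 0.23, 0.30 without the 2 farthest dogs, 0.36 and 0.33 in the trials and 0.12 and 0.40 with and without the mark. CCL2 rose by 0.53 per SD of ACKR2 (adjusted p = 1.73e-06, limma-voom), and by 0.29 with the score as a covariate (adjusted p = 0.0046). CCL5 and ACKR2 had r = 0.0045 (permutation p = 0.952) and rho = 0.02 (permutation p = 0.838), with 0.05 without the 2 farthest dogs, 0.09 and -0.09 in the trials and 0.03 and -0.0023 with and without the mark. Given the score the partial correlation was -0.27, and CCL5 fell by 0.41 per SD of ACKR2 (adjusted p = 0.0055, limma-voom), compared with a slope of 0.04 (adjusted p = 0.858) without it.

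The ligands of CCR1 followed it only loosely. CCL14 and CCR1 had r = 0.25 (permutation p = 0.0006) and rho = 0.22 (permutation p = 0.00263), with 0.24 without the 2 farthest dogs, 0.24 and 0.26 in the trials and 0.25 both with and without the mark. CCL23 and CCR1 had r = 0.14 (permutation p = 0.0527) and rho = 0.12 (permutation p = 0.112), and CCL5 and CCR1 r = 0.11 (permutation p = 0.148) and rho = 0.09 (permutation p = 0.242). Without the 2 farthest dogs these were 0.12 and 0.09, in the trials 0.13 and 0.16 for CCL23 and 0.12 and 0.09 for CCL5, and with and without the mark 0.10 and 0.16 for CCL23 and 0.13 and 0.10 for CCL5. Given the GS-1 score, CCL23 had a partial correlation of -0.19 with CCR1 and CCL5 of -0.16. CCL23 fell by 0.17 per SD of CCR1 in that fit (adjusted p = 0.0482, limma-voom), compared with a slope of 0.19 (adjusted p = 0.125) without the score. CCL14 rose by 0.39 without the score (adjusted p = 0.00468, limma-voom) and had a slope of 0.18 with it (adjusted p = 0.225), and CCL5 had a slope of 0.23 without it (adjusted p = 0.264). CCL21 and CCR7 had r = 0.20 (permutation p = 0.00771) and rho = 0.18 (permutation p = 0.0122), with 0.22 without the 2 farthest dogs, 0.19 and 0.21 in the trials, 0.19 and 0.20 with and without the mark and -0.0038 given the score, and CCL21 rose by 0.50 per SD of CCR7 (adjusted p = 0.0354, limma-voom). CX3CL1 and CX3CR1 had r = 0.08 (permutation p = 0.261) and rho = 0.06 (permutation p = 0.455), with 0.05 without the 2 farthest dogs, -0.0017 and 0.16 in the trials and 0.19 and 0.04 with and without the mark, and the slope of CX3CL1 was 0.12 (adjusted p = 0.267, limma-voom).

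**Figure D4:**
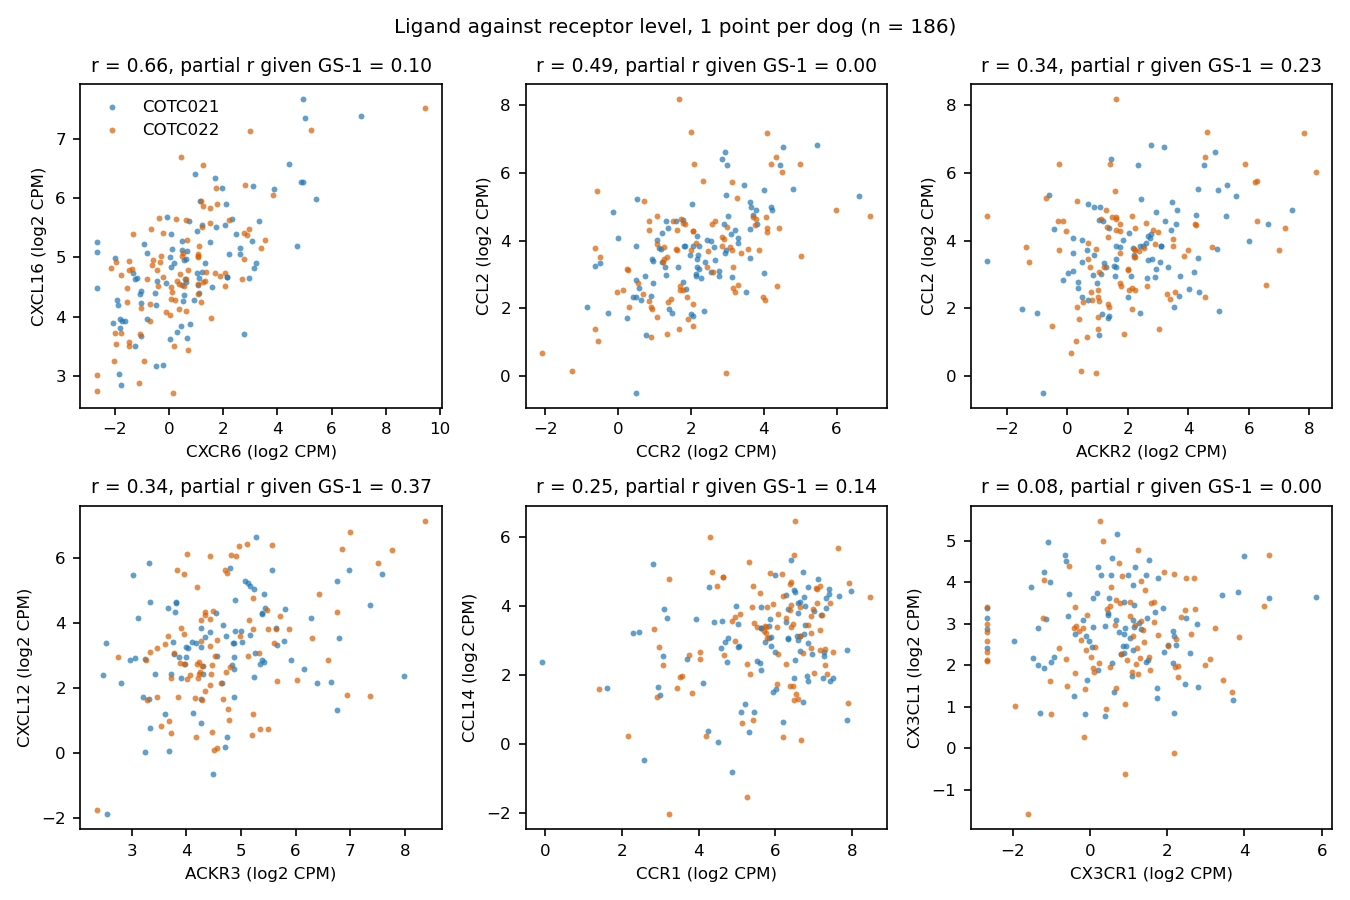
Level of a ligand (vertical axis) against its receptor (horizontal axis), both in log2 CPM, with 1 point per dog and the trials in blue (COTC021) and orange (COTC022). CXCL16 and CXCR6 rise together (r = 0.66) and CX3CL1 and CX3CR1 do not (r = 0.08), and the partial correlation given the GS-1 score is 0.0043 for CCL2 and CCR2 but 0.37 for CXCL12 and ACKR3.

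For pairs in which 1 or both genes did not pass the filter, correlations of log2(CPM + 2) over 186 dogs are given as a description, since most dogs have few counts. The 13 pairs in which each gene had 10 or more counts in at least 10 dogs had r from 0.083 to 0.77. CXCL13 and CXCR5, of the B cell follicle axis, had r = 0.77, with 10 or more counts of CXCR5 in 13 dogs. CXCL10 and CXCR3 had r = 0.74, with 10 or more counts of CXCR3 in 35 dogs, and rho = 0.46. CXCL8 had r = 0.71 with CXCR1 and 0.63 with CXCR2, and 0.67 and 0.57 without the dog of highest CXCL8. The other 9 pairs had lower r. Among ligands of CCR2, CCL8 had r = 0.47 and CCL13 0.23. CCL3 had 0.39 with CCR1, CCL19 had 0.34 with CCR7, and CCL2 had 0.33 with ACKR1. For CCR4, a receptor of helper and regulatory T cells, r was 0.25 with CCL22 and 0.083 with CCL17. For ACKR4, which scavenges CCL19 and CCL21, it was 0.23 and 0.13.

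Among themselves, 18 of the 19 genes formed 153 pairs with a median r of 0.23, and r was below 0 in 20. CCL5 and CXCR6, which are no ligand and receptor of each other, had the highest r, 0.81, or 0.79 without the dog of highest CCL5, and CCR2 and XCR1 the next, 0.75. Given the GS-1 score the median partial correlation was 0.0016, and 0.60 remained for CCL5 and CXCR6 and 0.29 for CCR2 and XCR1. After CCL5 and CXCR6, the highest partial correlations were 0.53 for ACKR2 and CXCL14, 0.50 for CCL2 and CXCL8, 0.47 for ACKR2 and ACKR3 and 0.46 for CCL2 and CCL23. CCL21 and CXCL14 followed at 0.38, ACKR3 and CXCL12 at 0.37, CXCL12 and CXCL14 at 0.36 and ACKR2 and CXCL12 at 0.35. The lowest was -0.49, for CCL5 and CX3CR1.

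Position was a further shared feature. CCR1, CCR2, CXCR6 (42970759 to 42975506) and XCR1 (42911915 to 42922678) lie within 1 stretch of chromosome 20, in the dog genome build GSD_1.0, and their 6 pairs had a median r of 0.49, from 0.13 to 0.75. The 4 tested CC ligands of chromosome 9, CCL2 (38976777 to 38978526), CCL5 (37783127 to 37789578), CCL14 (37748576 to 37751339) and CCL23 (37728778 to 37732670), formed 6 pairs with a median r of 0.40. The 141 pairs that are not near each other had a median of 0.22. Given the GS-1 score the medians were 0.049, -0.099 and 0.0043. The low value of chromosome 20 belonged to CCR1 with CXCR6, 0.13, so that neighbours in the genome differed in their relation to the other receptors.

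**Figure D5:**
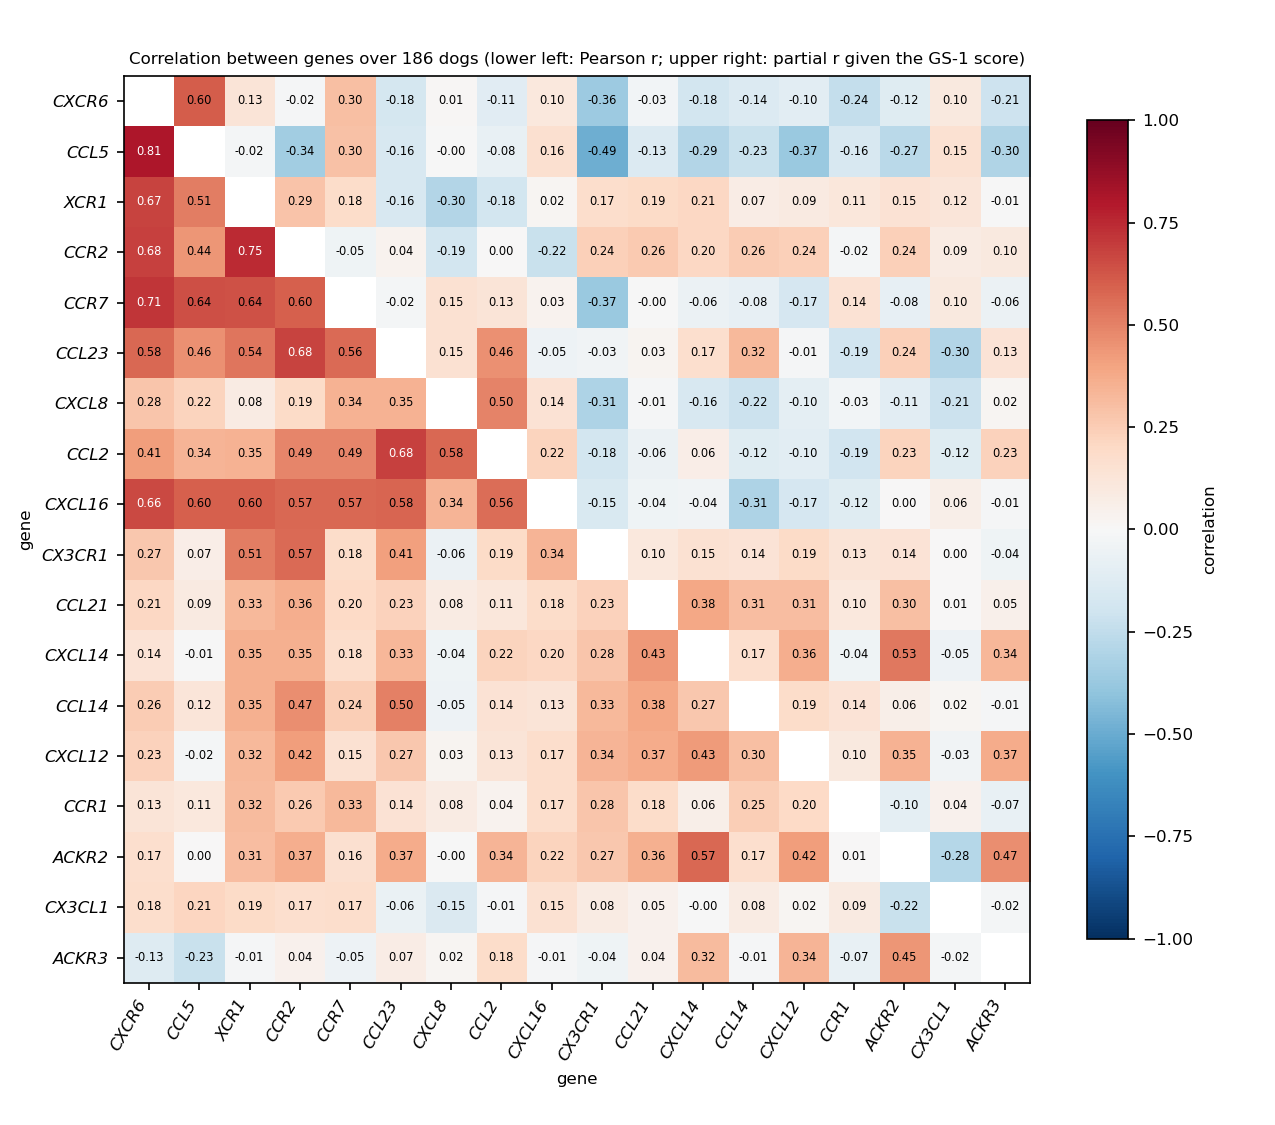
Correlation between 18 of the 19 genes over 186 dogs, ordered by their slope on the GS-1 score, with Pearson r in the lower left and the partial correlation given the GS-1 score in the upper right. CXCR6, CCL5, XCR1, CCR2 and CCR7 form a block with r from 0.44 to 0.81, and 0.60 remains for CCL5 and CXCR6 given the score.

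Genes downstream of chemokine receptors were read from a list of 38. With the GS-1 score 31 rose and 1 fell, compared with 22.4% and 26.1% of all genes, and the median slope was 0.32. The steepest were leukocyte members of the pathway: PRKCB, a protein kinase C, rose by 1.35 per SD (standard error 0.05), DOCK2, the Rac activator that lymphocytes use to migrate, by 1.19 (0.03), the Src-family kinase FGR by 1.17 (0.04), and RGS1, which dampens receptor signalling in lymphocytes, by 0.99 (0.08). Subunits found in every cell moved little, with 0.11 for GNAI2, -0.10 for GNAI3, which was the 1 gene to fall, and -0.03 for RAC1 (adjusted p = 0.305). The kinases and arrestins that silence receptors rose, with 0.30 for GRK2, 0.40 for ARRB1 and 0.35 for ARRB2. Of the interferon and inflammatory inducers, 4 of 9 were tested and all 4 rose, among them IDO1 by 1.82, IRF1 by 0.73 and NFKBIA by 0.33. Of 8 related genes outside the family, 5 were tested and 3 rose, CCRL2, a decoy receptor, by 0.73, CMKLR1 by 0.43 and CMTM7 by 0.38, while MIF had a slope of -0.02 and DPP4 of -0.01.

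Lastly, the libraries with the mark __ were compared with those without it, since the mark went with depth. None of the 19 genes differed by limma-voom, with 4.27% of all genes called, and 0 of the 19 had an unadjusted p under 0.05. The differences, with minus without the mark, ranged from -0.68 for CXCL8 (standard error 0.39) to 0.35 for CX3CR1 (standard error 0.28). The edgeR test called 4 of the 19, CCL5, CXCR6, CXCL8 and CCL2, with 5.16% of all genes called. CCL5 and CXCR6 lost this call without the dog of highest CCL5, at log2 differences of 0.52 and -0.10 against 2.01 and 2.53, and CXCL8 without the dog of highest CXCL8 (-1.47, adjusted p = 0.0514, against -2.36). CCL2 kept it in both cases, at -0.89 and -0.80. Without the low-count filter limma-voom called 12 of 50, with 44.2% of all genes called in either direction, and none of the 12 was among the 19. Their fitted differences were all below 0, but most of the 12 had few counts: CCL28, for example, had 5 counts in all, and CXCL11 no more than 2 in any dog. The mean CPM of CCL16, CCL20, CXCL11 and ACKR1, which were among the 12, was higher with the mark than without it, so no direction is read from these calls.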

How the data were processed

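Tumor mRNA of 186 dogs (93 per trial) was analysed. The authors trimmed the reads with cutadapt, aligned them with STAR to the dog build GSD_1.0 and quantified them with RSEM, and deposited expected counts per gene, of which 3.07% were not whole and were rounded here. The 12 columns that match no sample label were not used, and neither were the clusters and outcomes, which the labels do not give. The 51 genes and all gene lists were chosen with earlier results of these data known. After TMM scaling and the low-count filter (filterByExpr, minimum count 10, minimum proportion 0.5), 13422 genes were fitted with limma-voom (limma 3.58.1, R 4.3.3), with Benjamini-Hochberg adjustment over all of them and a threshold of 0.05. Alternatives were edgeR 4.0.16, DESeq2 1.42.0, other size factors, no filter, thinned counts, and leaving out single dogs or groups of dogs. Scores are mean z-scores of log2 CPM scaled to an SD of 1. Correlations across dogs used two-sided permutation tests with 100000 resamples. The genes named were the 51 themselves, by values where they passed the filter and otherwise by detection, the 3 annotated genes of highest r to each that passed, and genes of the fixed lists. Some items are not reported here, though counts over all genes include them. Scripts were tested on simulated data. Coordinates are those of RefSeq for UU_Cfam_GSD_1.0, matched by symbol for 51 of 51 genes. Depth, from 6587634 to 27420867 counts, limits genes of few counts.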

Additional observations from a re-analysis of the deposited data

How the results depend on the processing

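The trial comparison called 0 of the 19 genes by limma-voom and 1 by edgeR. With the GS-1 score, 18 genes passed with the low-count filter and 40 of 50 without it. Between the column-name groups, 0 passed by limma-voom, 4 by edgeR, 2 by edgeR without the dog of highest CCL5, 3 without the dog of highest CXCL8, and 12 by limma-voom without the filter. The 145 calls on marker scores became 67 with the GS-1 score as a covariate, not all of them among the 145. Of the 6 pairs with a ligand called on its receptor, only CXCL12 on ACKR3 and CCL2 on ACKR2 kept the call with that covariate. The 4 pairs called in that fit also held CCL23 on CCR1 and CCL5 on ACKR2, as falls that were not called without it. Among the values named, directions turned as follows. Trial differences were -0.15 for CXCL8 and -0.11 for CCL21 among the columns without the mark __, and for CCL5 0.67 among those with it, 0.094 by edgeR, 0.099 by edgeR without the dog of highest CXCL8 and 0.066 by DESeq2. ACKR3 had a GS-1 slope of 0.074 by edgeR, 0.076 by DESeq2, 0.033 among those columns, 0.0066 in COTC022 and 0.028 without the dog of highest CCL5. Between the column-name groups, CCL5 had 2.01 by edgeR, 0.52 without the dog of highest CCL5, 2.04 without that of highest CXCL8 and 0.46 within COTC022, CXCR6 had 2.53, 2.57 without the dog of highest CXCL8 and 0.56 within COTC022, and CX3CR1 had -0.037 by edgeR, -0.024 without the dog of highest CCL5 and -0.029 without that of highest CXCL8. Of 18 genes, 9 had the opposite sign in edgeR in that comparison. With the GS-1 score as a covariate, the macrophage slopes called as falls were -0.996 for CCL5, -1.33 for CXCR6 and -0.66 for XCR1. Those of CCR2 (-0.31, adjusted p = 0.149, limma-voom) and CCR7 (-0.42, adjusted p = 0.121) did not pass. Neither did the dendritic cell slopes of CCL23 (-0.14, adjusted p = 0.536) and CX3CR1 (-0.24, adjusted p = 0.591). The neutrophil slope of CXCR6 was -0.25 (adjusted p = 0.11). The macrophage score had a correlation of 0.92 with this covariate, so these slopes are imprecise. Partial correlations given the score were -0.16 for CCL5 and CCR1, -0.19 for CCL23 and CCR1, -0.0038 for CCL21 and CCR7, and -0.27 for CCL5 and ACKR2. CX3CL1 and CX3CR1 had r of -0.0017 within COTC021, and CCL5 and ACKR2 -0.090 within COTC022 and -0.0023 among the columns without the mark. The alternatives that leave out a dog or add the GS-1 score were chosen after seeing the data, and the cause of these changes was not tested. Of the other single values, 552 kept their direction and, where tested, their side of the threshold. Another 32 lost their call, 6 gained one and 4 moved. A further 44 counts stayed near the main count, within a margin wide enough to hold a change from 6 to 4. Such a count does not show that the same genes or pairs were called. No paired analysis was possible because dog numbers do not recur between the trials. Depth limits the 32 genes under the filter.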
